A study of Rattus norvegicus with 9 samples.

Results

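Rat cortical cultures that had gone through oxygen-glucose deprivation (OGD) and received Wnt3a plus Rspondin 1 were compared with cultures that had gone through OGD alone, 3 libraries against 3, which makes 6 of the 9 libraries of the study. The 6 were chosen by their labels and not by any measured value, and every gene of the table entered the comparison. OGD is a culture model of ischaemic stroke in which cells lose oxygen and glucose for a limited time. All 9 libraries came from primary neurons taken from the cerebral cortex of Sprague Dawley rat embryos at day 19. The OGD group was kept at 1% oxygen without glucose for 4.5 h before normal oxygen was restored. The treated group, labelled as under OGD and normal oxygen, received Wnt3a (100 ng/ml) and Rspondin 1 (50 ng/ml) for 24 h. The length of its OGD is not stated separately. The remaining 3 libraries are untreated controls, whose levels are given for reference. The labels name no vehicle for OGD alone, although the deposited tables call it vehicle, and the sources used here do not give the time of harvest. Cultures that received Wnt3a and Rspondin 1 but no OGD were not analysed here, so an effect of the proteins outside OGD cannot be told apart from one that needs it.

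Wnt3a binds Frizzled receptors together with Lrp5 or Lrp6, which halts the destruction complex of Axin, Apc and Gsk3 and lets beta-catenin accumulate and enter the nucleus, where it acts with TCF and LEF factors on target genes. Rspondin 1 binds Lgr4, Lgr5 or Lgr6 and removes the ubiquitin ligases Rnf43 and Znrf3 that take Frizzled off the cell surface, so more receptor stays available to the ligand. Axin2, Nkd1, Apcdd1, Rnf43 and Znrf3 are targets that act back on the pathway as inhibitors, and a rise of Axin2 is a common readout of beta-catenin signalling. In brain tissue the pathway is known for its part in progenitor growth, vessel and barrier formation, and synapse assembly.

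The genes that changed between the groups, described below, include 3 listed Wnt feedback and target genes (Axin2, Nkd1 and Tnfrsf19) and the growth factor gene Pdgfc. The bases before the annotated start of these 4 genes are shown because each holds a core motif of TCF and LEF factors. Sequences are from RefSeq (build GRCr8), read 5′ to 3′ on the strand of the gene, 250 bases each, and capitals mark the motif.
Axin2: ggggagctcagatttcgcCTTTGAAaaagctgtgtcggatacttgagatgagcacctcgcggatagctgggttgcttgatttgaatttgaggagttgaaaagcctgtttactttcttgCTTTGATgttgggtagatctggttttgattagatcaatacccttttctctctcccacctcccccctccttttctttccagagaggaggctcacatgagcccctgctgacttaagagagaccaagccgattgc
Nkd1: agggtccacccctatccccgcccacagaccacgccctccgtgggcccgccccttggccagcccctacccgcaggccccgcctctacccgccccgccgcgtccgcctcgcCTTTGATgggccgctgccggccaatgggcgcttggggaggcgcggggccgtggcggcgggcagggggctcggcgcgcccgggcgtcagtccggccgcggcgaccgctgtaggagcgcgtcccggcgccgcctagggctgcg
Pdgfc: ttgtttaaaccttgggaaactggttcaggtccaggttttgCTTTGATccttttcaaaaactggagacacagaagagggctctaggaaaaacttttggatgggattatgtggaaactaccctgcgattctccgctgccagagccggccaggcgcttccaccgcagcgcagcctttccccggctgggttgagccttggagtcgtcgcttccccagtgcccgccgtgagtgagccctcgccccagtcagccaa
Tnfrsf19: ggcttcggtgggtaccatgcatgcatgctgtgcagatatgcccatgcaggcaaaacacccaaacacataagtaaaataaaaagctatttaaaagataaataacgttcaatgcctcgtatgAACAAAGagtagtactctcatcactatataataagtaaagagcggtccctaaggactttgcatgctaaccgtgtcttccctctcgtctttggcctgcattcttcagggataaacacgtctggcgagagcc
They lie at chr10:94398535-94398784 on the plus strand for Axin2, chr19:34722847-34723096 on the minus strand for Nkd1, chr2:168614918-168615167 on the plus strand for Pdgfc and chr15:39334567-39334816 on the minus strand for Tnfrsf19. The first motif searched, on either strand, was CTTTGAT. The variants searched beside it were, in turn, CTTTGAA, then also CTTTGTT, and finally the form CTTTGTA. They differ in their last letters and so never mark the same stretch of a strand more than once. Axin2 held CTTTGAA at position -232 and CTTTGAT at -132, counted back from the start. Nkd1 held CTTTGAT at -141 and Pdgfc at -210. In Tnfrsf19 the match at -130 was on the opposite strand and reads AACAAAG. Of the 27 genes called below, 24 had a window in the table by symbol (Grm3, Atp1b1 and Cspg5 had none). The motif stood upstream of 5 of these 24 (20.8%). The fifth was Glul, where 1 of 2 windows held it. Its sequence is not shown, and unlike the 4 genes above it was called lower. Of all 27457 genes of the table, 4354 (15.9%) held it in the same stretch. A match describes these letters only and shows no binding.

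Total counts were 14285914 to 22261384 in the 6 libraries, and 15605802 to 25048521 in controls. OGD replicate 1 was the shallowest and stood apart. On the first principal component of the 6 libraries (34.7% of the variance of log2 CPM, counts scaled to library size) it lay at -39.9, and the other 5 lay between -2.99 and 16.4. Transcripts of the mitochondrial genome took 2.91% of its counts, and 4.08% to 4.97% in the other 5. Some of the calls that change without it are named below. Replicates are labelled as separate samples, but no source says that they came from separate cultures. The p-values below therefore cover the spread among these libraries only, and that spread may be technical.

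The label of cortical neurons was checked against marker genes. Summed FPKM (counts scaled by gene length and library total) of 12 neuron markers ran from 2820 to 2950 in controls, from 500 to 670 after OGD alone and from 502 to 647 with the proteins. The 12 astrocyte markers together held 7030 to 7680 FPKM after OGD alone and 6540 to 6840 with the proteins, against 2930 to 3100 in controls. Astrocyte marker sums were above neuron marker sums in every library, by little in controls and by far in both OGD groups. Neural progenitor markers summed to 4020 to 4590 and 4040 to 4540 FPKM in the 2 OGD groups, oligodendrocyte lineage markers to 1280 to 1320 and 1240 to 1340, and mural and fibroblast markers to 674 to 887 and 642 to 761. Microglia markers summed to 41.4 to 52.2 and 47.2 to 51.8, and endothelial markers to 16.2 to 18.7 and 16.5 to 17.5, with Cldn5 at 0 in all 6 libraries. The ranges of the 2 OGD groups overlapped for every one of these lists except astrocyte markers, whose sum was lower with the proteins in every library, and inhibitory neuron markers, at 102 to 131 FPKM after OGD alone and 140 to 143 with the proteins. In bulk RNA, fewer cells of a type and less RNA per cell cannot be told apart, and no gene below is assigned to a cell type.

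Few genes passed the test between cultures with and without the proteins. Over the 13693 genes tested by the quasi-likelihood method of edgeR, 27 (0.197%) had a Benjamini-Hochberg adjusted p under 0.05. Of these, 24 were higher with Wnt3a plus Rspondin 1 (0.175%) and 3 were lower (0.0219%). The higher genes were Fam107a, Slc24a2, Grm3, Axin2, Pdgfc, Extl1, Hspb1, Tnfrsf19, Rcan2, Laptm4a, Chst2, Pamr1, Atp1b1, Ildr2, Vgf, Ptar1, Ednra, Moxd1, Nkd1, Foxo1, Gja1, Cspg5, Fzd5 and St6galnac5, and the lower ones were Id1, Glul and Efhd1. Absolute log2 changes of called genes ran from 0.38 to 2.02. A 2-fold rise or more was reached by 12 of them, and a 2-fold fall by 0. In all 27 the 3 libraries of one group lay wholly above those of the other. That was also so for 1311 of all tested genes (9.57%), in 647 upward (4.73%) and 664 downward (4.85%).

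Without OGD replicate 1, 49 genes were called (0.352% of 13925), among them all 27. Without OGD replicate 2 the number was 13, and without treated replicate 2 or 3 it was 12 or 17. DESeq2 called 99 genes (60 higher, 39 lower; 0.76% of 13025), which included all 27. The calls of 11 genes held in each of the 15 alternative settings, which were another scaling, another tool, other filters, fewer libraries and leaving out each library in turn: Fam107a, Slc24a2, Grm3, Axin2, Pdgfc, Id1, Extl1, Hspb1, Tnfrsf19, Glul and Rcan2. For the other 16, settings that ended the call are named beside the gene, apart from a fit with the replicate number as a block, whose changed calls are given in the closing section.

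**Figure D1:**
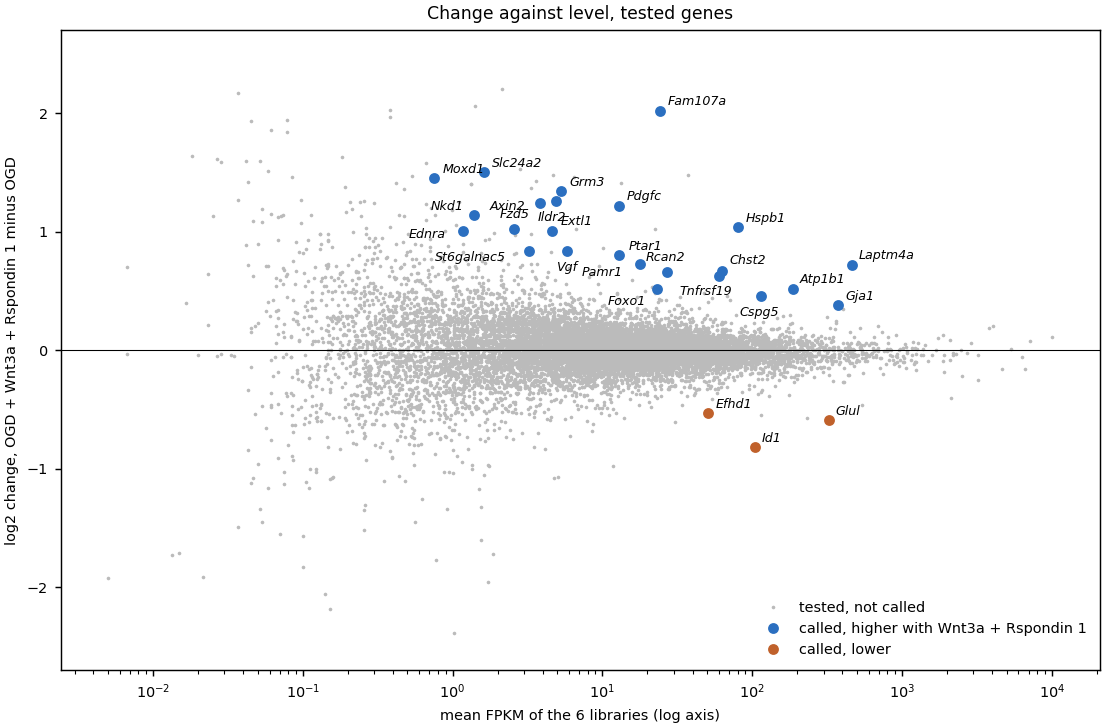
Log2 change between OGD with Wnt3a plus Rspondin 1 and OGD alone (vertical) against mean FPKM of the 6 libraries (horizontal, log axis) for each tested gene, with called genes in blue (24 higher) and orange (3 lower) and 14 genes outside the axes not drawn. Called genes spread over levels from 0.753 to 462 FPKM, and Fam107a had the highest change among them, at 2.02.

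Of the Wnt feedback and target genes, Axin2, Nkd1 and Tnfrsf19 were called higher and none was called lower. Axin2, the scaffold of the destruction complex that limits beta-catenin, stood at 2.51, 2.24 and 2.02 FPKM after OGD alone and 5.18, 5.3 and 5.72 with the proteins. Every treated library was more than 2 FPKM above every library with OGD alone, and the controls, at 2.48, 2.06 and 2.16 FPKM, lay in the range of OGD alone. The rise was 1.24 ± 0.12 on the log2 scale (change ± SE, adjusted p = 0.000776), a fold of 2.36. Between OGD alone and control the log2 change of Axin2 was -0.07 (adjusted p = 0.614).

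Nkd1, whose product binds Dishevelled and restrains the pathway, stood at 0.74, 0.93 and 0.92 FPKM after OGD alone and 2.08, 2.05 and 1.71 with the proteins. Its control libraries, at 1.46, 1.63 and 1.2 FPKM, lay between the 2 groups. It rose by 1.14 ± 0.19 (adjusted p = 0.032). The gene was low, and its call was lost in 9 of 15 settings, among them adjusted p = 0.105 without OGD replicate 2, 0.0815 without OGD replicate 3, 0.114, 0.174 and 0.0644 without treated replicates 1 to 3, 0.0674 and 0.0529 without control replicates 1 and 2, and 0.0896 with the 6 libraries alone. Tnfrsf19 encodes TROY, a receptor of the tumour necrosis factor family found on neural progenitors and astrocytes. It was abundant, at 53.45, 45.06 and 49.19 FPKM after OGD alone and 72.08, 67.67 and 73.99 with the proteins, and the groups did not overlap. The rise was 0.63 ± 0.08 (adjusted p = 0.00293). Control libraries held 10.63, 13.5 and 13.43 FPKM, below both OGD groups.

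Of the 28 listed Wnt feedback and target genes, 27 had a read in the study and 21 were tested. The 3 calls are therefore 3 of 21, where 0.175% of all tested genes were called higher. The median log2 change was 0.13 against 0 over all tested genes. At an unadjusted p under 0.05, 4 members were higher and 2, Cd44 and Fzd7, were lower. Over all 13693 tested genes, 375 were higher and 409 lower at that level. The list was written with earlier results of these data known. Apcdd1, a membrane inhibitor of Wnt reception, was next outside the threshold. It stood at 3.17, 3.22 and 3.72 FPKM after OGD alone and 5.7, 4.64 and 5.35 with the proteins, so the groups did not overlap, and its log2 change was 0.62 ± 0.11 (adjusted p = 0.0601). Other targets used as readouts elsewhere had estimates nearer 0. The 95% interval of the log2 change was 0.00 to 0.38 for the cyclin gene Ccnd1 (estimate 0.19), -0.17 to 0.30 for Myc (0.07) and -0.35 to 0.36 for the receptor ubiquitin ligase gene Rnf43 (0.00). For these 3 genes the interval leaves out a change as large as that of Axin2. Lef1, a nuclear partner of beta-catenin, had 6, 7 and 15 counts after OGD alone and 15, 19 and 18 with the proteins. Its change of 0.82 had an interval from -0.09 to 1.72, too wide at this depth to place it. The estimates for Jag1 (0.39), Nkd2 (0.32), Dkk4 (0.32), the stem cell receptor gene Lgr5 (0.17), Zcchc12 (0.13) and Sox9 (0.06) were above 0. Those for Ascl2 (-0.54), Fzd7 (-0.47), Lgr6 (-0.38), Bambi (-0.37), Prokr2 (-0.28), Wif1 (-0.24) and Cd44 (-0.22) were below 0, and none of these 13 passed. The TCF factor gene Tcf7 had 5, 3 and 5 counts after OGD alone and 11, 0 and 4 with the proteins. Notum had 3, 0 and 3 against 2, 6 and 8, Sp5 3, 2 and 0 against 4, 1 and 4, and Ccn4 6, 2 and 1 against 8, 1 and 3. Dkk1 and Tbx3 had at most 2 counts in any of the 6 libraries. At these counts no difference could be detected, and Znrf3 was not matched to a row.

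**Figure D2:**
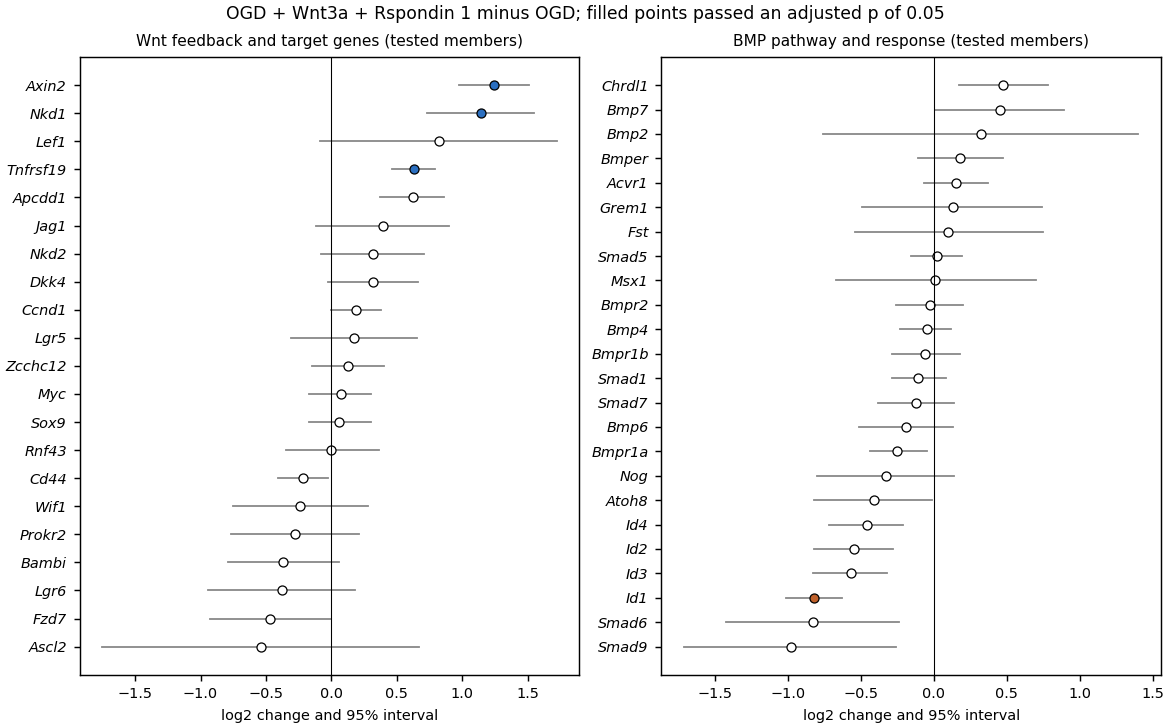
Log2 change between OGD with Wnt3a plus Rspondin 1 and OGD alone (points) with 95% intervals (lines) for the tested members of the Wnt feedback and target genes (left, 21) and of the BMP pathway and its response genes (right, 24), with filled points past an adjusted p of 0.05. On the left Axin2, Nkd1 and Tnfrsf19 are filled above 0, and on the right Id1 is filled below 0 with Id2, Id3 and Id4 open beside it.

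Among Wnt receptors and the intracellular parts of the pathway, 1 of 34 tested genes was called higher and 0 lower (median -0.05). At an unadjusted p under 0.05, 1 was higher and 2 were lower. The called gene was Fzd5, a Frizzled receptor, at 1.98, 1.52 and 1.56 FPKM after OGD alone and 3.54, 3.55 and 3.32 with the proteins. Controls held 1.2, 1.37 and 0.91 FPKM, below every treated library. The rise was 1.02 ± 0.18 (adjusted p = 0.0464), close to the threshold, and the call was lost in 9 of 15 settings, with adjusted p = 0.0558 with DESeq2's size factors (RLE) in edgeR, 0.0706 with the 6 libraries alone, 0.212 and 0.145 without OGD replicates 2 and 3, 0.149, 0.229 and 0.165 without treated replicates 1 to 3, and 0.082 and 0.0695 without control replicates 1 and 2. Ctnnb1, the gene of beta-catenin itself, stood at 407.18, 356.86 and 355.33 FPKM after OGD alone and 322.91, 319.6 and 303.11 with the proteins, with a log2 change of -0.26 ± 0.08 (adjusted p = 0.459). Beta-catenin is controlled mainly through stability of the protein, which was not measured. Of 18 tested ligands, Rspondins and secreted antagonists, none passed edgeR's threshold (median 0.02; 3 higher and 1 lower at an unadjusted p under 0.05). The antagonist genes Sfrp2 (0.36 ± 0.08, adjusted p = 0.116) and Dkk3 (0.33 ± 0.07, adjusted p = 0.131) had the smallest p-values and were called by DESeq2. The genes of the added proteins gave almost no reads. Wnt3a had 0 counts in all 6 libraries, which allows up to 3 counts in each. Rspo1 had 0 in each library with OGD alone and 2, 1 and 2 with the proteins, against 33, 20 and 35 in controls. It was 1 of the 3 list members higher at an unadjusted p under 0.05, so that entry rests on counts near the floor.

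Genes of other signalling pathways made up a further group of calls. Pdgfc encodes a ligand of the alpha receptor for platelet-derived growth factor. It stood at 6.8, 6.7 and 9.3 FPKM after OGD alone and 15.38, 20 and 19.83 with the proteins, and at 2.83, 2.74 and 2.97 FPKM in controls. All treated libraries were above all libraries with OGD alone, with treated replicate 1 the lowest of the 3. The rise was 1.22 ± 0.13 (adjusted p = 0.000949). It was the 1 called gene of 16 tested ligands and receptors of this family and of vascular growth factors (median 0.02); its receptor gene Pdgfra had a change of 0.22 ± 0.08 (adjusted p = 0.67).

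Id1 encodes an inhibitor of basic helix-loop-helix factors and is a direct target of bone morphogenetic protein (BMP) signalling. It had the largest change of the 3 lower genes, from 145.19, 120.32 and 129.26 FPKM after OGD alone to 79.23, 74.35 and 73.59 with the proteins. Control libraries held 21.97, 24.88 and 22.29 FPKM, below both. The log2 change was -0.82 ± 0.09 (adjusted p = 0.00109). Of 24 tested genes of the BMP pathway and its response, 0 were called higher and 1 lower (median -0.08). In 8 of the 24, treated libraries lay wholly below those of OGD alone, where 4.85% of all tested genes did. In 1 they lay wholly above, where 4.73% of all tested genes did. By unadjusted p under 0.05, 2 were higher and 8 lower, against 375 and 409 of all 13693 tested genes. Other lists leaned as well. Of 27 extracellular matrix genes 8 lay wholly below and 1 above, and of 27 cell cycle genes 10 lay wholly above and 3 below. These lists were written with earlier results of these data known. Id3 stood at 300.73, 281.05 and 245.61 FPKM after OGD alone and 217.64, 190.67 and 155.27 with the proteins and Id2 at 158.18, 127.64 and 117.77 FPKM after OGD alone and 106.25, 94.17 and 79.16 with the proteins. In both genes the treated libraries were all lower, but the edgeR test did not call them, with a log2 change of -0.57 ± 0.12 (adjusted p = 0.0838) for Id3 and -0.55 ± 0.12 (adjusted p = 0.135) for Id2. DESeq2 called Id1, Id2, Id3 and Id4, all lower. Id genes also respond to Notch, and of 19 tested Notch pathway genes none passed edgeR's threshold (median -0.11; 2 lower at an unadjusted p under 0.05). Among them the effector gene Hes5 stood at 5.79, 6.68 and 7.08 FPKM after OGD alone and 4.57, 2.18 and 2.46 with the proteins, with a change of -1.08 ± 0.24 (adjusted p = 0.121; DESeq2 adjusted p = 0.00541). The fringe gene Lfng had -0.46 ± 0.12 (adjusted p = 0.27; DESeq2 adjusted p = 0.0421).

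Rcan2, a regulator of the phosphatase calcineurin, stood at 18.69, 22.11 and 22.18 FPKM after OGD alone and 32.54, 32.56 and 35.41 with the proteins. The groups did not overlap, and controls, at 23.43, 25 and 22.26 FPKM, were near OGD alone. It rose by 0.66 ± 0.08 (adjusted p = 0.00334), 1 of 12 tested calcineurin, Rcan and NFAT genes. Ednra, the endothelin A receptor gene, was low, at 0.96, 0.69 and 0.71 FPKM after OGD alone and 2.1, 1.33 and 1.31 with the proteins, with treated replicate 1 the highest. It rose by 1.01 ± 0.16 (adjusted p = 0.0205), 1 of 5 tested endothelin genes, and was lost in 7 settings, among them adjusted p = 0.105 and 0.0815 without OGD replicates 2 and 3, 0.0896 and 0.136 without treated replicates 1 and 2, 0.0502 without control replicate 2 and 0.109 with the 6 libraries alone. Ednrb, the partner receptor of glia, had -0.18 ± 0.07 (adjusted p = 0.787).

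Vgf, a neuropeptide precursor that neurotrophins induce, stood at 3.69, 3.88 and 4.74 FPKM after OGD alone and 6.26, 8.15 and 7.97 with the proteins, and at 15.18, 16.3 and 17.16 FPKM in controls. Treated libraries were above OGD alone but below every control. The rise was 0.84 ± 0.13 (adjusted p = 0.0143), the 1 call among 17 tested neurotrophins and trophic factors. It was lost without OGD replicate 2 (adjusted p = 0.0967), treated replicate 2 (0.117) or treated replicate 3 (0.0895), and with the 6 libraries alone (0.0956). Foxo1, a transcription factor held back by insulin and growth factor signals, stood at 20.12, 18 and 18.15 FPKM after OGD alone and 28.03, 25.04 and 28.6 with the proteins. It rose by 0.52 ± 0.09 (adjusted p = 0.0404). Its call was lost with RLE factors, with the 6 libraries alone and without any 1 library other than OGD replicate 1 (adjusted p from 0.0558 to 0.246 in these 10 settings).

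**Figure D3:**
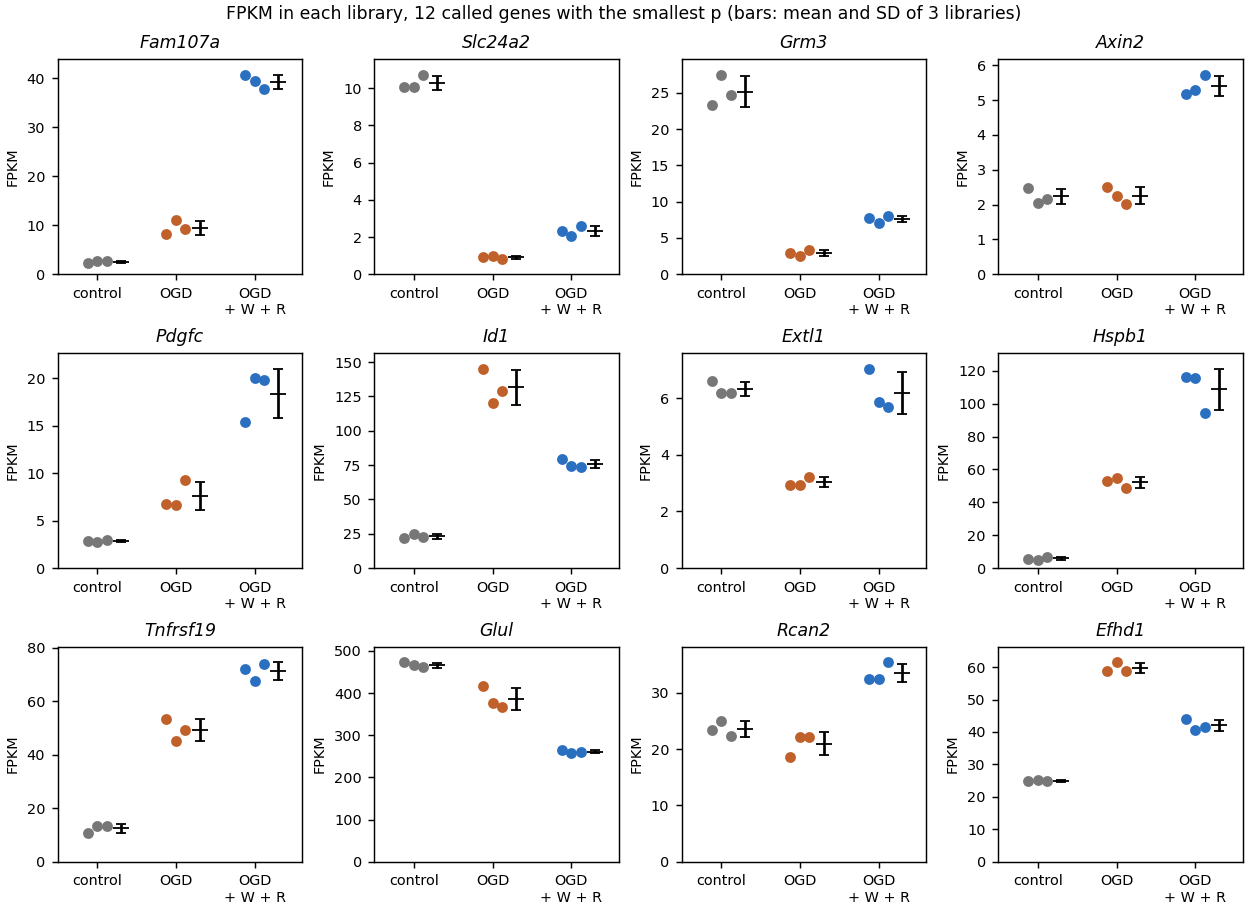
FPKM (vertical) in each of the 9 libraries for the 12 called genes with the smallest p, as points for control (grey), OGD (orange) and OGD with Wnt3a plus Rspondin 1 (blue, W + R), with mean and SD of 3 libraries in black and axes starting at 0. In every panel the blue points lie wholly above or wholly below the orange ones, and in Axin2 and Rcan2 grey and orange points stand near each other.

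The remaining calls with the smallest p-values were a stress gene and 2 genes of ion and transmitter handling. Fam107a (ENSRNOG00000033261), an actin-associated protein of neurons and astrocytes that stress and glucocorticoids induce, stood at 8.26, 11.08 and 9.17 FPKM after OGD alone and 40.65, 39.4 and 37.83 with the proteins. Treated libraries were all far above every library with OGD alone, and controls held 2.26, 2.65 and 2.65 FPKM. The rise was 2.02 ± 0.10 (adjusted p = 1.41e-06), a fold of 4.06, on top of a log2 change of 1.84 between OGD alone and control. Of 17 tested glucocorticoid receptor targets Fam107a was the 1 called (median -0.06). Tsc22d3, another of these targets, had 0.42 ± 0.13 (adjusted p = 0.436).

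Slc24a2, a sodium-calcium-potassium exchanger of neurons, stood at 0.95, 0.98 and 0.83 FPKM after OGD alone and 2.35, 2.06 and 2.59 with the proteins, against 10.05, 10.06 and 10.7 FPKM in controls. Grm3, a metabotropic glutamate receptor of neurons and astrocytes, stood at 2.93, 2.46 and 3.28 FPKM after OGD alone and 7.81, 7.12 and 7.98 with the proteins, against 23.31, 27.44 and 24.66 in controls. Both were well under control after OGD alone and higher, though still below control, in every treated library. The rise was 1.5 ± 0.13 for Slc24a2 and 1.34 ± 0.12 for Grm3 (adjusted p = 0.000237 for each), and with the proteins they were still lower than control by a log2 of -2.26 ± 0.11 and -1.87 ± 0.11. Neuron marker sums overlapped between the 2 OGD groups (500 to 670 and 502 to 647 FPKM), and inhibitory neuron marker sums did not (102 to 131 and 140 to 143 FPKM). Any part of neuron content in these 2 rises was not tested. Of 32 tested genes of glutamate receptors and the postsynapse, Grm3 was the 1 called higher and none was called lower (median -0.05). None of 26 presynaptic genes (median -0.02) or 25 voltage-gated channel genes (-0.07) passed edgeR's threshold or DESeq2's; at an unadjusted p under 0.05 they held 0 and 1.

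Atp1b1, a beta subunit of the sodium-potassium pump, stood at 163.98, 138.37 and 155.8 FPKM after OGD alone and 228.8, 218.98 and 218.47 with the proteins, and at 575.31, 546.26 and 543.94 FPKM in controls. It rose by 0.52 ± 0.08 (adjusted p = 0.0115), with treated libraries closely grouped. The call was lost without OGD replicate 2 (adjusted p = 0.0701), without treated replicates 2 (0.0858) or 3 (0.0741) and with the 6 libraries alone (0.0751). Hspb1, the small heat shock protein Hsp27, stood at 53.12, 54.89 and 48.45 FPKM after OGD alone and 115.97, 115.86 and 94.12 with the proteins, against 5.72, 4.81 and 6.9 in controls. The rise was 1.04 ± 0.11 (adjusted p = 0.00109), and of 14 tested heat shock genes Hspb1 was the 1 called (median 0.04). The related small heat shock gene Hspb8 had a change of -0.24 ± 0.09 (adjusted p = 0.745).

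A pair of genes from the astrocyte marker list went in opposite directions. Glul, the glutamine synthetase that joins glutamate and ammonia in astrocytes, stood at 416.33, 375.47 and 367.87 FPKM after OGD alone and 264.97, 258.07 and 259.13 with the proteins. All 3 treated libraries lay far below OGD alone, which was below the controls at 472.43, 466.14 and 460.53 FPKM. The log2 change was -0.59 ± 0.07 (adjusted p = 0.00293). Gja1, the gap junction protein connexin 43 that couples astrocytes, stood at 326.11, 333.06 and 318.2 FPKM after OGD alone and 438.95, 412.88 and 434.08 with the proteins. It rose by 0.38 ± 0.06 (adjusted p = 0.0404), the smallest change among the calls. The call was lost with RLE factors, with the 6 libraries alone and without any 1 library other than OGD replicate 1, at adjusted p from 0.0558 to 0.231. Of 11 tested astrocyte markers these were the 2 called (median -0.06). The list's sum was lower with the proteins (6540 to 6840 against 7030 to 7680 FPKM), and its most abundant member was Gfap, at 3786.56, 3403.68 and 3302.58 FPKM after OGD alone and 3153.31, 3000.81 and 2795.61 with the proteins (log2 change -0.25 ± 0.09, adjusted p = 0.592). Glul and Gja1 are themselves part of that sum, so it is no separate measure of astrocyte content. The part of this shift in either result was not tested.

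Among the calls were 4 genes of sugar chains on proteins and lipids. Extl1, a glycosyltransferase of heparan sulfate synthesis, stood at 2.95, 2.94 and 3.23 FPKM after OGD alone and 7.05, 5.86 and 5.68 with the proteins. It rose by 1.01 ± 0.11 (adjusted p = 0.00109), and treated libraries covered the range of controls, at 6.61, 6.2 and 6.2 FPKM. Chst2, which adds sulfate to N-acetylglucosamine, stood at 53.92, 44.41 and 45.66 FPKM after OGD alone and 80.4, 79.24 and 73.08 with the proteins. It rose by 0.67 ± 0.09 (adjusted p = 0.00835) and was lost without OGD replicate 2 (adjusted p = 0.0592) and without treated replicate 2 (0.0819). St6galnac5, a sialyltransferase of gangliosides in brain, stood at 2.29, 2.01 and 2.57 FPKM after OGD alone and 3.91, 4.01 and 4.52 with the proteins. Cspg5, the chondroitin sulfate proteoglycan neuroglycan C, stood at 103.86, 94.19 and 88.25 FPKM after OGD alone and 136.99, 134.48 and 126.78 with the proteins. In both genes the groups did not overlap. The rises were 0.84 ± 0.15 for St6galnac5 (adjusted p = 0.0465) and 0.46 ± 0.08 for Cspg5 (adjusted p = 0.0464). Both calls were lost with RLE factors, with the 6 libraries alone and without any 1 library other than OGD replicate 1, at adjusted p from 0.0558 to 0.246 for St6galnac5 and from 0.0633 to 0.217 for Cspg5.

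The other called genes have varied roles. Laptm4a, a membrane protein of lysosomes and one of the most abundant calls, stood at 291.52, 381.58 and 363.54 FPKM after OGD alone and 540.56, 601.72 and 593.81 with the proteins, with OGD replicate 1 the lowest. It rose by 0.72 ± 0.10 (adjusted p = 0.00715) and was lost without treated replicate 2 (adjusted p = 0.0815). Efhd1, a calcium-binding protein of mitochondria, stood at 58.72, 61.42 and 58.86 FPKM after OGD alone and 43.99, 40.71 and 41.42 with the proteins. It fell, with a log2 change of -0.53 ± 0.07 (adjusted p = 0.00462), and was also lost without treated replicate 2 (adjusted p = 0.0556). Controls of Efhd1 held 24.83, 25.26 and 24.8 FPKM, below both groups. Pamr1, a secreted protein with a peptidase domain, stood at 14.19, 12.82 and 12.76 FPKM after OGD alone and 22.6, 23.21 and 21.03 with the proteins, with no overlap. The rise was 0.73 ± 0.10 (adjusted p = 0.00914), lost without OGD replicate 2 (0.0616) and without treated replicate 2 (0.0858).

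Ildr2, an immunoglobulin-domain membrane protein, stood at 3.93, 2.11 and 2.47 FPKM after OGD alone and 6.63, 6.25 and 7.89 with the proteins, and OGD replicate 1 was the highest of its group. Its rise of 1.26 ± 0.19 (adjusted p = 0.0143) was lost without OGD replicates 2 (0.0616) or 3 (0.0652), without treated replicates 1 (0.0501), 2 (0.0819) or 3 (0.0863), and with the 6 libraries alone (0.0737). Ptar1, which carries repeats of prenyltransferase alpha subunits, stood at 8.99, 9.4 and 9.78 FPKM after OGD alone and 16.47, 14.36 and 18.97 with the proteins. It rose by 0.80 ± 0.12 (adjusted p = 0.0167). That call was lost without OGD replicates 2 (0.0848) or 3 (0.0516), without treated replicates 1 (0.0614) or 3 (0.106), and with the 6 libraries alone (0.0524). Moxd1, a relative of dopamine beta-hydroxylase, was the lowest called gene, at 0.4, 0.45 and 0.34 FPKM after OGD alone and 0.92, 1.22 and 1.19 with the proteins. The groups did not overlap in any library. The rise was 1.45 ± 0.23 (adjusted p = 0.0205), lost without control replicate 2 (0.0502), OGD replicates 2 (0.0805) or 3 (0.0815), treated replicates 2 (0.14) or 3 (0.113), and with the 6 libraries alone (0.0772).

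**Figure D4:**
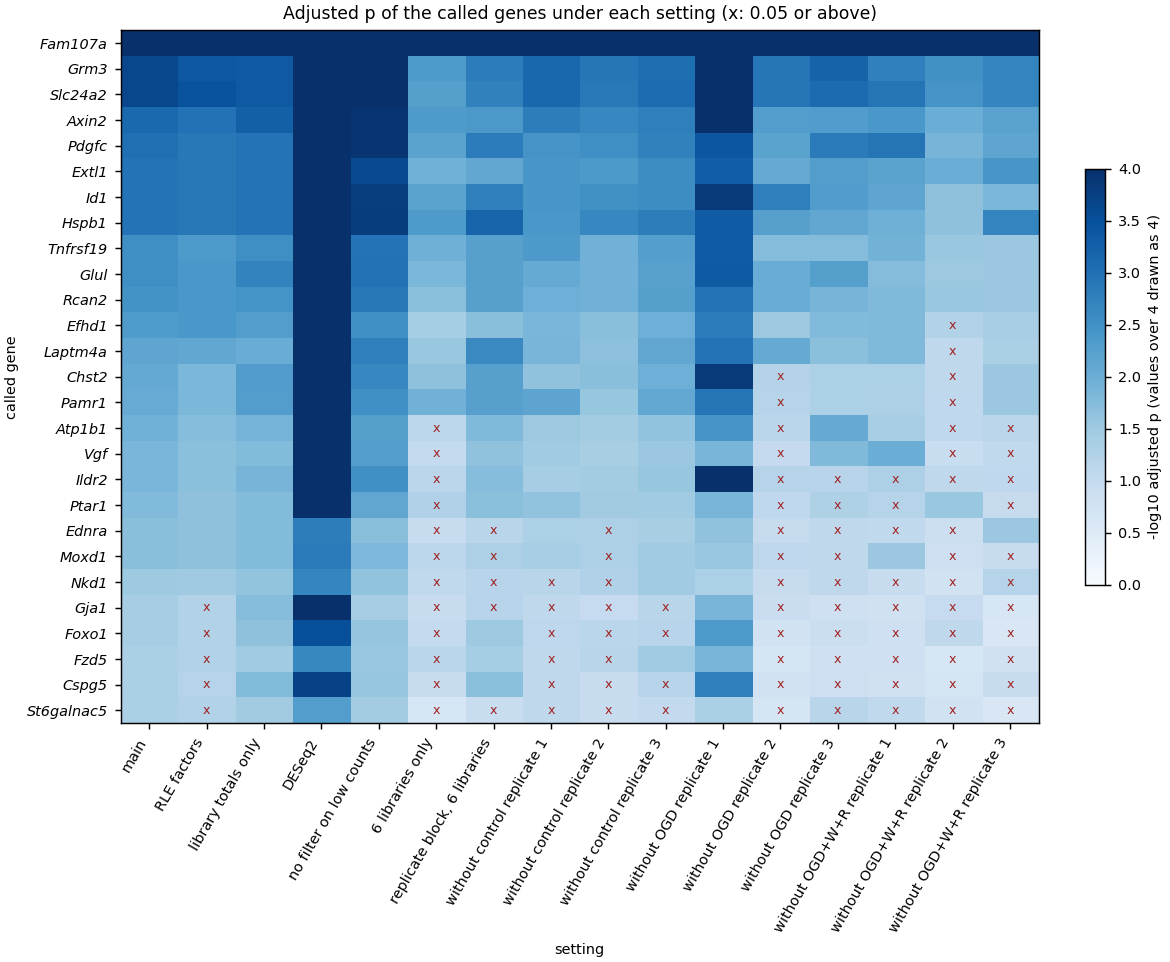
Adjusted p of each called gene (rows) under the reported fit (main) and 15 alternatives (columns), as -log10 in shades of blue with values over 4 drawn as 4 and crosses at 0.05 or above; W+R is Wnt3a plus Rspondin 1. The top 11 rows hold no cross, and leaving out OGD replicate 1 adds none in any row.

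Set beside control, the called genes differed in where OGD alone had left them. These comparisons share libraries, so the values are descriptions. Extl1 and Moxd1 were lower than control after OGD alone, by log2 changes of -1.15 and -1.25, and near control with the proteins (-0.14 ± 0.10, adjusted p = 0.253, and 0.19 ± 0.21, adjusted p = 0.412). Nkd1 and Ednra stood at -0.79 and -1.34 after OGD alone and 0.35 ± 0.18 and -0.33 ± 0.15 with the proteins. Slc24a2, Grm3, Atp1b1, Vgf, Ildr2, Cspg5 and St6galnac5 had log2 changes between -3.76 and -0.74 after OGD alone and stayed below control with the proteins. Fam107a, Pdgfc, Hspb1, Tnfrsf19, Laptm4a, Pamr1, Ptar1, Foxo1, Gja1 and Fzd5 were above control after OGD alone, by 0.47 (Fzd5) to 3.06 (Hspb1), and further above it with the proteins, by 1.49 (Fzd5) to 4.10 (Hspb1). Id1 and Efhd1 were above control by 2.43 and 1.17 after OGD alone and by 1.61 ± 0.09 and 0.65 ± 0.07 with the proteins. Axin2, Rcan2 and Chst2 were within 0.22 of control after OGD alone and above it with the proteins, by 1.16 ± 0.12, 0.45 ± 0.08 and 0.50 ± 0.09. Between OGD alone and control, Rcan2 passed edgeR's threshold (-0.22 ± 0.08, adjusted p = 0.0306). Axin2 (adjusted p = 0.614) and Chst2 (0.114) did not. Glul was below control by -0.36 and then by -0.95 ± 0.07.

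The genes next outside the threshold differed little in size from the last calls. They were Cpne8 (log2 change 0.69, adjusted p = 0.0507), Rasd1 (0.86, 0.0601), Baalc (-0.41, 0.0601), Apcdd1 (0.62, 0.0601), Tmem38a (-0.50, 0.0618), the mitotic kinase gene Aurkb (-0.41, 0.0625), the steroid reductase gene Srd5a1 (0.56, 0.0636) and the monoamine oxidase gene Maob (0.64, 0.0657). DESeq2 called all 8. Without OGD replicate 1, edgeR called 5 of them as well: Aurkb (adjusted p = 0.0261), Srd5a1 (0.0272), Rasd1 (0.0318), Baalc (0.0352) and Cpne8 (0.0352). Just inside were St6galnac5 (0.0465), Fzd5 and Cspg5 (0.0464 each). Of the genes that only DESeq2 called, Slc7a11, the cystine transporter that feeds glutathione synthesis, stood at 10.11, 17.18 and 16.59 FPKM after OGD alone and 30.73, 27.37 and 32.39 with the proteins. OGD replicate 1 was the lowest of its group, and the change was 1.02 ± 0.18 (edgeR adjusted p = 0.0657). Without that library it was 0.83 ± 0.12 (adjusted p = 0.0163). The amino acid transporter gene Slc7a8 (-0.39) and the peptide-processing gene Cpe (0.35) were also called by DESeq2, and Cpe by edgeR without OGD replicate 1 (adjusted p = 0.0134). Echs1 was called there too, but its counts were 0, 175 and 0 after OGD alone, 0 in every treated library and 62, 0 and 114 in controls, so the call rests on OGD replicate 2 and no direction is read from it.

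Most gene lists had no call by edgeR's test, where 0.197% of all tested genes were called. Counts at an unadjusted p under 0.05, which 784 of all tested genes passed (5.73%; 375 higher, 409 lower), are given beside each list. Genes of cell death were at 0 at both levels, with 11 BCL2 family genes (median log2 change 0.02) and 17 p53 targets (0.02). Of 32 genes of hypoxia and glycolysis 1 was lower at the unadjusted level (-0.12), of 22 of endoplasmic reticulum and integrated stress 3 were higher (0.11), and of 21 antioxidant genes and metallothioneins 1 was higher and 2 lower (-0.06), with 1 each called by DESeq2. Of 19 immediate early genes 1 was higher and 2 lower (-0.10), with 1 lower by DESeq2, and of 18 genes of FGF and ERK feedback 2 were higher and 3 lower (-0.09), with 1 higher by DESeq2. None of 11 genes of inflammation (0.06), 18 of the interferon response (0.05) or 30 nuclear genes of the respiratory chain (-0.05) passed at either level. Of 23 genes of cholesterol synthesis and uptake 1 was higher (0.05), and of 27 of the extracellular matrix 1 was higher and 4 lower (-0.12). Of 20 genes of GABA receptors and metabolism 1 was higher and 2 lower (0.07), with 1 each by DESeq2. The receptor subunit gene Gabbr2 was called lower by edgeR without OGD replicate 1 (adjusted p = 0.0387). Of 30 genes of axon guidance and growth 1 was higher and 1 lower (-0.02). The 13 mRNAs of the mitochondrial genome had a median of 0.10 with 1 higher, and the median was -0.09 without OGD replicate 1.

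Of 27 tested cell cycle genes none passed the adjusted edgeR test (median 0.16), but 9 were higher and 1 lower at that unadjusted level. The replication and mitosis genes Ccna2 and Top2a were among the 9. Ccna2 stood at 4.33, 4.64 and 4.21 FPKM after OGD alone and 5.78, 6.5 and 6.01 with the proteins, a change of 0.45 ± 0.12 (adjusted p = 0.34), and Top2a had 0.39 ± 0.13 (adjusted p = 0.526). Aurkb, a mitotic kinase, went the other way, at 59.94, 66 and 58.13 FPKM after OGD alone and 46.43, 48.77 and 44.98 with the proteins. Its change of -0.41 ± 0.08 missed edgeR's threshold (adjusted p = 0.0625) but was called in 5 of 15 settings, DESeq2 (adjusted p = 9.23e-05) and the fit without OGD replicate 1 (adjusted p = 0.0261) among them.

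Markers of cell types had no edgeR call beside Gja1 and Glul. None of 12 neuron markers (median 0.08, and -0.05 without OGD replicate 1), 10 excitatory (0.07) or 10 inhibitory neuron markers (0.23) passed edgeR's test, and 1, 0 and 4 of them were higher at an unadjusted p under 0.05. Gad2, which makes the transmitter GABA, stood at 2.39, 2.52 and 3.23 FPKM after OGD alone and 3.49, 3.8 and 3.93 with the proteins, a change of 0.44 ± 0.11 (adjusted p = 0.187; DESeq2 adjusted p = 0.0437). None of 9 microglia (0.09), 11 oligodendrocyte lineage (-0.01), 8 progenitor (-0.03), 5 endothelial (-0.10) or 8 mural and fibroblast markers (-0.20) passed either. At an unadjusted p under 0.05, 2 oligodendrocyte lineage markers were higher and 1 progenitor marker, Hes5, was lower.

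**Figure D5:**
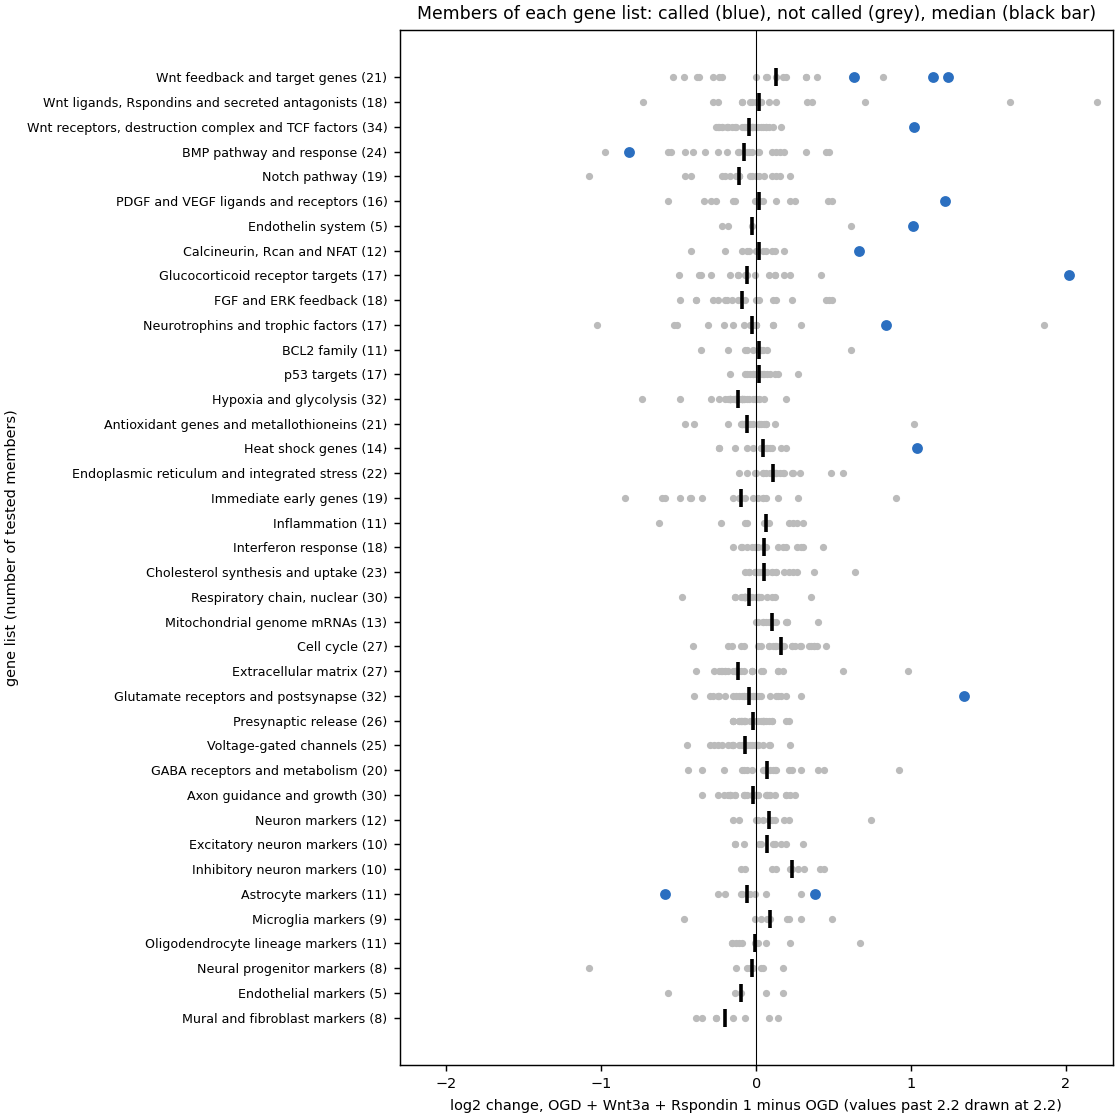
Log2 change between OGD with Wnt3a plus Rspondin 1 and OGD alone (horizontal, values past 2.2 drawn at 2.2) for the tested members of 39 gene lists (rows, with the number tested), as grey points for genes not called, blue for genes called and a black bar for the median. Medians lie between -0.20 and 0.23, and no list holds more than 3 called members.

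The precision of the comparison depended on level. The median SE of the log2 change was 0.12 over all tested genes. It was 0.37 for 1605 genes with a mean under 1 FPKM, 0.18 from 1 to 5 FPKM, 0.11 from 5 to 20 FPKM and 0.09 above 20 FPKM. These levels held 1, 8, 5 and 13 of the calls. For 12446 genes (90.9%) the 95% interval lay wholly within a 2-fold change in either direction, and for 10491 (76.6%) within 1.5-fold. A small change in a gene of low level was therefore not detectable with 3 libraries a group at this depth.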

How the data were processed

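RNA sequencing libraries made with an Illumina TruSeq RNA kit were analysed from the tables that the authors deposited. Per the file headers, these hold whole-number counts per rat Ensembl gene, not normalized, and FPKM values that the authors scaled by gene length and library total. Bowtie 0.12.2 and mouse builds appear in the submitters' processing notes. The sources used here do not state the aligner, rat build, annotation, counter or use of strand behind the tables, so reads of genes that overlap or run antisense may be shared. The authors' fold and p-value columns were not used. Libraries were matched to groups by column name and sample title.

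The deposited counts of all 9 libraries entered a robust quasi-likelihood fit with 3 group means (edgeR 4.0.16, R 4.3.3; TMM scaling; filterByExpr with a minimum count of 10 in 3 libraries and a minimum total of 15; 6 residual degrees of freedom). Of 22050 genes, 17332 had a read and 13693 were tested, and p-values were adjusted over these by Benjamini-Hochberg with a threshold of 0.05. The controls entered for the estimate of the spread. The prior count of log2 changes was 0.125, and 95% intervals use the t distribution of the fit. Another 15 settings were run, among them DESeq2 1.42.0. A count of 0 allows up to 3 counts in a library, or 0.135 to 0.21 CPM in the 6 libraries; such floors cover counting error only.

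The comparison and the 39 gene lists were chosen with earlier results of these data known, and no list was tested as a set. Named are every called gene, every measured Wnt feedback or target gene, up to 3 members of each other list by smallest p (only some are printed), the 8 genes next outside the threshold, 8 that only DESeq2 called, and Wnt3a and Rspo1; Pdgfra, Ednrb and Hspb8 come from that rule too. Symbols were matched exactly, ignoring case, and 102 symbols had several identifiers.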

Additional observations from a re-analysis of the deposited data

How the results depend on the processing

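In place of 27 calls (24 higher, 3 lower), DESeq2 gave 99 (60 higher, 39 lower), the 6 libraries alone 15 (12 higher, 3 lower), RLE factors 24 (19 higher, 5 lower), and no filter on low counts 39 (32 higher, 7 lower). Leaving out 1 library gave 12 to 49 calls, 10 to 38 higher and 2 to 11 lower, the most without OGD replicate 1 and the fewest without treated replicate 2. A replicate block on the 6 libraries gave 43 (29 higher, 14 lower), of which 22 were among the 27, and added Id2 and Id3. It ended the calls of Nkd1 (adjusted p = 0.0667), Ednra (0.069), Moxd1 (0.05), Gja1 (0.0664) and St6galnac5 (0.116). The numbers share no stated culture: same-numbered libraries deviated with r = 0.23, 0.07 and 0.27, each library best with its own number, which is a hint from the data and not from the design. RLE factors kept 22 of the 27 calls and library totals alone kept 27. Over the named genes and settings, 2149 values stayed the same, 99 lost a call and 55 gained one. The same meant that a called gene kept its call and direction. For an uncalled gene it meant no call and a shift within a margin set by its SE. No call reversed in direction. The sign was not checked for uncalled genes, and some estimates changed sign, as for Wif1 (-0.24, and up to 0.05 in other settings). Echs1 could not be placed without OGD replicate 2, at a log2 change of 0. The causes were not tested. With 3 libraries a group and a median SE of 0.37 for genes under 1 FPKM, precision is limited by low counts.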

Other observations

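Ceacam4, a gene of the carcinoembryonic antigen family of cell adhesion molecules, was chosen after its values were seen. It had 0 counts in each library with OGD alone and 16, 39 and 17 counts with Wnt3a plus Rspondin 1. The treated mean was 7.7-fold above a floor of 3 counts per library, a value that leaves out the spread among treated libraries. Controls had 0, 0 and 8 counts. Its adjusted p was 0.0838 by edgeR, and 0.0199 in the fit with a replicate block. As the gene was chosen for its counts of 0, these values are no separate support. It was the 1 tested gene with no count in a whole group and 3 or more in every library of the other.

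Without OGD replicate 1, 22 further genes were called, and the ones given here were also chosen after their values were seen. The four-jointed homologue gene Fjx1 had a log2 change of 0.55 ± 0.08 (adjusted p = 0.00206; 0.46 with all libraries), the repressor gene Tgif1 0.68 ± 0.11 (adjusted p = 0.0134), the growth factor gene Tgfb2 -0.42 ± 0.08 (adjusted p = 0.0224) and the fatty acid elongase gene Elovl2 -0.44 ± 0.08 (adjusted p = 0.0154). With all libraries the edgeR adjusted p of these 4 genes was 0.0657, 0.0657, 0.383 and 0.436. The phytanoyl-CoA hydroxylase-interacting protein gene Phyhip moved from 0.93 (edgeR adjusted p = 0.945) with all libraries to 1.76 ± 0.30 (adjusted p = 0.0438) without OGD replicate 1.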
